A study of Mus musculus with 8 samples.

Results

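Mitochondrial respiration couples the oxidation of nutrients to the synthesis of ATP. Complex I (NADH dehydrogenase) and complex II (succinate dehydrogenase) pass electrons to coenzyme Q, complex III (cytochrome bc1) passes them to cytochrome c, and complex IV (cytochrome c oxidase) passes them to oxygen, while ATP synthase (complex V) uses the resulting proton gradient to make ATP. Photoreceptor cells are among the most energy-demanding cells of the body, and their inner segments are packed with mitochondria. The genes described here encode the subunits of these 5 complexes in the nucleus. They were taken by their symbols, as all genes whose symbols begin with Nduf followed by a, b, c, s or v and a number, are Sdha to Sdhd, begin with Uqcr, begin with Cox4 to Cox8 followed by a, b or c, or begin with Atp5. This rule found 82 genes among the 20018 named on the array: 37 of complex I, 4 of complex II, 8 of complex III, 16 of complex IV and 17 of ATP synthase.

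Lpcat1 encodes lysophosphatidylcholine acyltransferase 1, which attaches a fatty acid to lysophosphatidylcholine. RNA of the whole retina from wildtype (WT) and Lpcat1 knockout (KO) mice, both of C57BL/6 background and 2 weeks of age, was measured on 1-colour Agilent mouse arrays, with 4 samples per genotype and 1 array per sample. The deletion was global. C57BL/6 is the strain on the labels, and the study's methods place the KO line on C57BL6/N, a substrain that carries rd8, a retinal degeneration allele of Crb1. They state that the line was crossed to C57BL6/J to remove rd8 and that mice homozygous for it were not used. The labels do not say whether the samples of a genotype came from separate animals, so p-values measure the spread between these samples, whose small number sets the precision. Levels are log2 signals from which the 75th percentile of their own array was subtracted, and differences are KO minus WT of these levels. Each difference is given with its standard error (SE) and with limma's adjusted p (Benjamini-Hochberg). A gene was called when its adjusted p was under 0.05 and its change exceeded 1.2-fold.

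All arrays lay on 1 slide, WT in one row and KO in the other, so slide row and genotype cannot be told apart. The 75th percentile signal ranged from 638 to 738 over the 8 arrays. Lpcat1 itself had a mean level of -0.41 (SD 0.03, n = 4) on the WT arrays and -0.87 (SD 0.06, n = 4) on the KO arrays. It was lower in KO by a log2 difference of -0.46 (SE 0.04, adjusted p = 0.0036 by limma), without overlap, and 72.5% of the WT signal remained. The position of this probe relative to the deleted stretch was not determined, so the value does not settle whether intact transcript was present. Because the RNA came from the whole retina, fewer cells of a type and less RNA per cell cannot be told apart.

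Most subunit genes had slightly lower signals in KO retinas, and almost none of these differences was large enough to be called. Of the 82 genes, 80 were tested, all well above background on all 8 arrays. Cox7b2 and Cox8c, isoforms of complex IV subunits known from the testis, were not well above background on any array. The difference was negative for 72 of the 80 genes, with a median of -0.10, or 93.1% of the WT signal, and an interquartile range of -0.13 to -0.07. Over all 14939 genes tested the median was -0.02. The 8 genes with a positive difference were Ndufa6 and Ndufa9 of complex I, Sdhb of complex II, Uqcrb of complex III, Cox6a2, Cox7a1 and Cox8b of complex IV, and Atp5d of ATP synthase.

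A single gene, Ndufa4l2, was called lower in KO (1.49% of all tested genes were), and 0 were called higher (1.99% of all tested genes were) by limma, with 0 called higher by the methods' t-test as well. At an unadjusted p under 0.05 and any fold, 41 members were lower and 2 were higher, beside 15.3% and 10.9% of all tested genes. Without the limit on fold, 4 members had an adjusted p under 0.05 and a lower signal, beside 3.32% of all tested genes, and 1 had a higher signal, beside 3.3%. The 4 were Ndufa4l2, Atp5g2, Ndufb11 and Ndufb8, and the other was Cox7a1. In 39 of the 80 genes all KO arrays lay below all WT arrays, or 48.8% of the members beside 12.4% of all tested genes. In 2 genes, Cox7a1 and Cox6a2, all KO arrays lay above all WT arrays, beside 8.78% of all tested genes.

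The separation between genotypes depended on how the arrays were scaled. The number of members whose KO values all lay below the WT values was 33 with the 75th percentile of detected probes, 32 with normexp background correction and 31 with the authors' own values, beside 9.84%, 9.79% and 10.2% of all tested genes. It was 8 with a median shift, 6 with cyclic loess and 4 with quantile normalization, settings under which 6.73%, 7.85% and 8.3% of all tested genes were separated in this way. The median of the members was -0.03 under quantile normalization and under cyclic loess and -0.08 to -0.10 under the other scalings. It was negative, and below the median of all tested genes, under every scaling tried. Of the 72 single negative differences, 62 shrank by more than 1.5 times under quantile normalization and 66 under cyclic loess, and 8 and 10 of them turned positive, so the values of single genes given below hold for the 75th percentile scaling unless another is named.

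**Figure D1:**
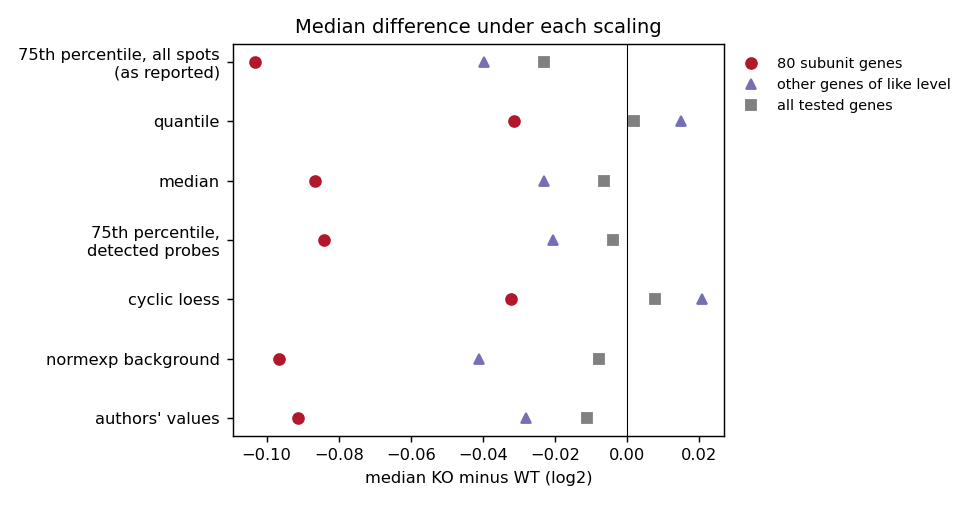
Median KO minus WT difference (log2, horizontal axis) under each of 7 ways to scale the arrays, for the 80 subunit genes (circles), other genes of like level (triangles) and all tested genes (squares). Genes of like level are those within the interquartile range of the members' mean levels. The subunit genes lie to the left of both other groups in every row, at -0.10 in the top row and at -0.03 under quantile normalization and cyclic loess.

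Subunit genes are bright on these arrays, and with this scaling bright genes as a whole had lower signals in KO. The comparison was therefore repeated against other genes of like brightness. The interquartile range of the members' mean levels ran from 3.91 to 5.77 and held 40 members and 1139 other genes. The median difference was -0.10 for these 40 members and -0.04 for the other genes. KO values lay wholly below WT values in 19 of the 40 members (47.5%) and in 21.1% of the other genes. With the 75th percentile of detected probes, normexp and the authors' values, 17.8%, 17.9% and 17.3% of the 1139 genes were separated in this way. Under these scalings 33, 32 and 31 of all 80 members were. The 80 members include dimmer and brighter genes than the 1139, so this comparison is not matched for brightness. In it, no clear excess of the members was seen under the other 3 scalings. With quantile normalization, cyclic loess and a median shift, 9.75%, 9.22% and 9.57% of the 1139 genes were separated, beside 4, 6 and 8 of the 80 members. When the members were ordered by mean level and split into groups of 20, the medians were -0.07, -0.08, -0.12 and -0.12 from dim to bright, and those of other genes between the same levels were -0.02, -0.04, -0.06 and -0.08. The members without overlap numbered 4, 6, 13 and 16 of 20, beside 12.5%, 19.4%, 27.9% and 38.0% of the other genes. The median of the 80 members lay below that of the 1139 genes by 0.06. Under quantile normalization and cyclic loess it lay below by 0.05, and there the median of the 1139 genes was positive (0.01 and 0.02).

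With the 75th percentile scaling, the shift was seen on all arrays. Taking for each gene its deviation from its mean over the 8 arrays, the median over the 80 members was 0.02, 0.05, 0.06 and 0.08 on WT arrays 1 to 4 and -0.04, -0.05, -0.01 and -0.09 on KO arrays 1 to 4. No KO array reached a WT array, and the spread within each genotype (SD 0.02 in WT and 0.03 in KO) was smaller than the distance between the means. In the other genes of like level the WT arrays lay between -0.00 and 0.04 and the KO arrays between -0.03 and 0.00, and these ranges overlapped. Under quantile normalization and cyclic loess the median difference of the members was -0.03. Whether the array medians of the genotypes stay apart under these or the other scalings was not tested.

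**Figure D2:**
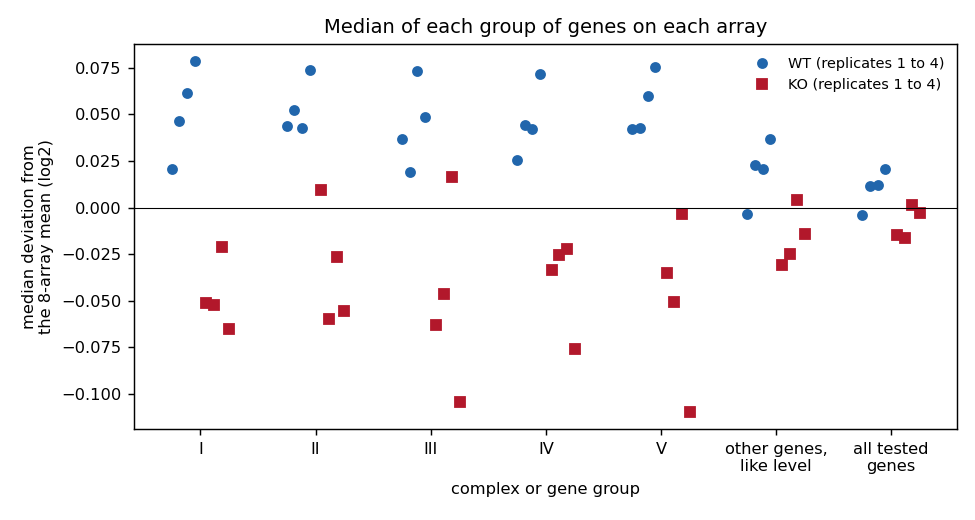
Median deviation from the 8-array mean (log2, vertical axis) on each array for complexes I to V, other genes of like level and all tested genes. Levels have the 75th percentile scaling. WT arrays (circles) and KO arrays (squares) stand in replicate order 1 to 4, and they do not overlap in any complex but overlap in the other genes and in all tested genes.

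The 5 complexes had similar medians. The median difference was -0.10 in complex I (35 of 37 genes negative), -0.09 in complex II (3 of 4), -0.10 in complex III (7 of 8), -0.11 in complex IV (11 of 14 tested) and -0.12 in ATP synthase (16 of 17). KO values lay wholly below WT values in 18, 1, 3, 7 and 10 genes of these complexes, in the same order. Over all tested genes the share was 12.4%. Under quantile normalization and cyclic loess the medians of the complexes were -0.05 to -0.03. The SD between arrays had a median of 0.04 in WT and 0.06 in KO over the 80 members.

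**Figure D3:**
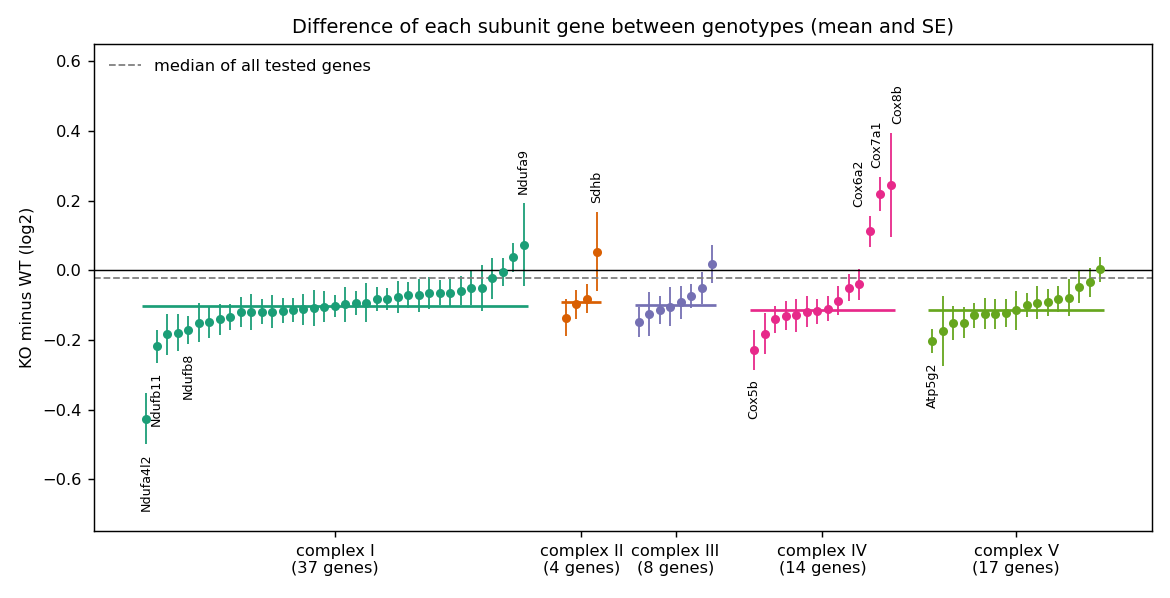
KO minus WT difference (log2, vertical axis) of the 80 tested subunit genes, ordered by size within each complex. Points are estimates, bars are SE, coloured lines are the medians of the complexes (-0.09 to -0.12), and the dashed line is the median of all tested genes (-0.02).

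The 4 members with an adjusted p under 0.05 and a promoter in the RefSeq-based table (GRCm38.p6) are shown with the 150 bases before their start, 5′ to 3′ on the coding strand, because they carry the differences described next. In all, 73 promoters of 68 members were found, each 300 bases long with 250 before and 50 after the start. Capitals mark matches on either strand to the core letters of motifs known from genes of mitochondrial proteins and from general promoters: GCGCANGC of nuclear respiratory factor 1 (NRF1), CCGGAAG of ETS factors, AAGATGGC of YY1 and CCAAT of NF-Y. The Atp5g2 stretch lies at chr15:102671048-102671197 on the minus strand, and its capitals are a pair of overlapping NRF1 matches, 1 on each strand. The Ndufb11 stretch lies at chrX:20617620-20617769 on the minus strand and holds 4 NF-Y matches, and the Cox7a1 stretch lies at chr7:30184021-30184170 on the plus strand and holds 2. The Ndufb8 stretch lies at chr19:44555443-44555592 on the minus strand, and none of these letters occur in it.
Atp5g2: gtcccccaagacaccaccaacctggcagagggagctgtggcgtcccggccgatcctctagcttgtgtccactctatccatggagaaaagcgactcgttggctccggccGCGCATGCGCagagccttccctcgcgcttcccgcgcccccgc
Ndufb11: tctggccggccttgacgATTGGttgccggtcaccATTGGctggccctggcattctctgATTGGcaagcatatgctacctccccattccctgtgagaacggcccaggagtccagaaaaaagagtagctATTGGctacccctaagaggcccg
Ndufb8: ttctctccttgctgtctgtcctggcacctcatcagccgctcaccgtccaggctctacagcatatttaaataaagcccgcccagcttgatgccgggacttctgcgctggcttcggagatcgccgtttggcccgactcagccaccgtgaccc
Cox7a1: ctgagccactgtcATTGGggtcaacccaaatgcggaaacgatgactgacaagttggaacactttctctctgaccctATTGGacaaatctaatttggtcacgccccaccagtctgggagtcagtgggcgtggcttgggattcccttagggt
The NRF1 letters occurred in 24 of the 73 member promoters (32.9%), beside 17.1% of the promoters of all tested genes and 9.95% of all promoters in the table. The ETS letters occurred in 17 (23.3%), beside 14.7% and 8.86%, and the YY1 letters in 10 (13.7%), beside 3.78% and 2.75%. The NF-Y letters occurred in 31 (42.5%), beside 37.3% and 37.4%. Members whose KO values lay wholly below the WT values held the NRF1 letters in 11 of 32 promoters (34.4%), and the other tested members held them in 13 of 40 (32.5%). In the same order the ETS letters occurred in 10 (31.2%) and 7 (17.5%), the YY1 letters in 1 (3.12%) and 9 (22.5%), and the NF-Y letters in 13 (40.6%) and 17 (42.5%). These splits were not tested. A match is a run of letters and not a shown binding site.

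In complex I, the core subunits had small negative differences, and the genes with the lowest adjusted p were not core subunits. Ndufa4l2, a paralog of Ndufa4 known to be induced by hypoxia, is counted with complex I by its name only. Without Ndufa4 and Ndufa4l2, 0 genes of complex I were called. The levels of Ndufa4l2 were 0.79, 0.98, 0.94 and 0.94 on the WT arrays and 0.64, 0.32, 0.48 and 0.50 on the KO arrays. The highest KO array lay below the lowest WT array. The gene fell by 0.43 (SE 0.07, limma adjusted p = 0.0223), to 74.4% of the WT signal. The call was lost without the filter on dim probes (adjusted p = 0.076) and with a block for replicate number (adjusted p = 0.0753). It was also lost when any of WT replicates 2, 3 or 4 or KO replicates 3 or 4 was left out (adjusted p up to 0.0708). The direction was kept under every setting.

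Ndufb11, an accessory subunit of the membrane arm encoded on the X chromosome, had levels of 6.44, 6.55, 6.52 and 6.58 in WT and 6.25, 6.31, 6.39 and 6.26 in KO. The genotypes did not overlap, and the difference was -0.22 (SE 0.05, adjusted p = 0.0421). A second, dimmer probe of the gene gave -0.21 (adjusted p = 0.0185). Ndufb8, another accessory subunit of the membrane arm, had levels of 6.02, 6.02, 6.12 and 6.01 in WT and 5.88, 5.88, 5.90 and 5.82 in KO, again without overlap. Its difference was -0.17 (SE 0.04, adjusted p = 0.0482), or 88.8% of the WT signal. Of 22 other scalings, filters, tests and left-out arrays, 7 kept an adjusted p under 0.05 for Ndufb11 and 6 for Ndufb8, and none of these left out an array (0.0555 to 0.116 and 0.0712 to 0.112).

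Ndufv1 and Ndufv2, which form the NADH-oxidizing module, had differences of -0.12 each (adjusted p = 0.0884 and 0.142), and neither overlapped between genotypes. Ndufs1, the large iron-sulfur subunit of the same module, had -0.10 (adjusted p = 0.279) with overlap. Among the subunits that hand electrons on to coenzyme Q, Ndufs3 had -0.12 (adjusted p = 0.0937), Ndufs7 -0.05 and Ndufs8 -0.07. Ndufs7 was positive under quantile normalization (0.04) and cyclic loess (0.02). The largest positive value in complex I, 0.07 (SE 0.12) of the accessory subunit Ndufa9, rested on WT replicate 1, whose level was 3.00 while the other WT arrays lay at 3.52 to 3.53 and the KO arrays at 3.44 to 3.50. Without that array the difference was -0.06.

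Complex II had no gene with an adjusted p under 0.05. Sdha, the flavoprotein that oxidizes succinate, had a difference of -0.08 (adjusted p = 0.274). The membrane anchors Sdhc and Sdhd had -0.10 and -0.14, and Sdhc did not overlap between genotypes. Sdhb, the iron-sulfur subunit, had 0.05 (SE 0.11), which rested on WT replicate 3 at 4.62, below the other WT arrays at 5.11 to 5.16 and the KO arrays at 5.01 to 5.08. Its second probe gave -0.08, and the difference of the first was -0.07 without that array. A second probe of Sdhc gave 0.01.

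In complex III, Uqcrq, a small subunit of the membrane part, had the largest decrease, -0.15 (SE 0.04, adjusted p = 0.0848), with levels of 6.40, 6.36, 6.41 and 6.33 in WT and 6.23, 6.22, 6.30 and 6.16 in KO. KO replicate 3 came closest to the WT arrays but did not reach them. Uqcrfs1, the Rieske iron-sulfur protein, had -0.13 (adjusted p = 0.267), and the core proteins Uqcrc1 and Uqcrc2 had -0.10 and -0.07. Uqcrb had 0.02 (SE 0.05), and its other probes gave 0.02 and -0.03.

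Complex IV contained both directions. Several of its subunits exist as isoforms, with forms used in most tissues and forms best known from heart and skeletal muscle. The widely used forms had negative differences: Cox6a1 -0.12, Cox6b1 -0.13, Cox7a2 -0.12 and Cox8a -0.14, with adjusted p from 0.0746 for Cox8a to 0.152 for Cox7a2. Under quantile normalization these differences were -0.01, -0.09, -0.07 and -0.04, in the same order. A second probe of Cox8a gave -0.01 (adjusted p = 0.849). Of the forms known from muscle, Cox6a2 had 0.11, Cox7a1 0.22 and Cox8b 0.24, and Cox6b2, known from the testis, had -0.04.

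Cox7a1 had levels of 1.02, 1.05, 1.13 and 1.17 in WT and 1.24, 1.35, 1.36 and 1.30 in KO. All KO arrays were above all WT arrays, and the difference was 0.22 (SE 0.05, adjusted p = 0.0445), or 116% of the WT signal. The adjusted p stayed under 0.05 in 12 of 22 other settings and reached 0.121 without the filter on dim probes. Of the fits that left out an array, the one without KO replicate 1 kept it (0.0428), and the others gave 0.0629 to 0.119. Cox8b had levels of 0.04, 0.08, 0.19 and -0.06 in WT and 0.58, 0.58, -0.08 and 0.15 in KO, so that KO replicates 1 and 2 were high and KO replicates 3 and 4 lay in or near the WT range (adjusted p = 0.366). Cox6a2 was among the dimmest members on the array, between -2.39 and -2.24 on WT arrays and between -2.21 and -2.14 on KO arrays (adjusted p = 0.176).

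**Figure D4:**
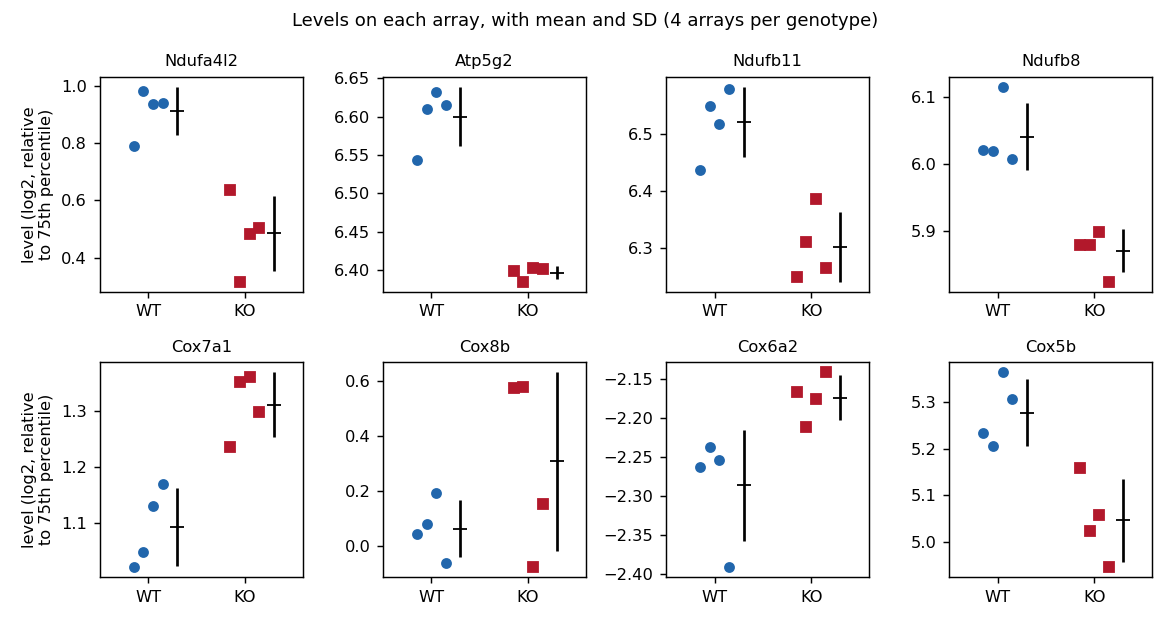
Levels on each array (log2 relative to the 75th percentile, vertical axes, each panel with its own scale) of 8 subunit genes in WT (circles) and KO (squares), in replicate order, with mean and SD beside them. Only Cox8b overlaps between the genotypes, with KO replicates 1 and 2 at 0.58.

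The isoforms of a subunit were also set against each other within arrays, for 8 pairs chosen after the values were seen. A shift common to all probes of an array cancels in such a difference, but a shift that depends on level does not. Levels differed within pairs, as for Cox6a2 (mean -2.23) and Cox6a1 (mean 7.63). The smallest p that 4 against 4 arrays allow is 0.0286, and after adjustment over the 8 pairs none reached 0.05. The difference of Cox7a1 and Cox7a2 shifted by 0.34 in KO (SE 0.05, two-sided exact permutation p = 0.0286, adjusted 0.114), and that of Cox6a2 and Cox6a1 by 0.23 (SE 0.05, exact permutation p = 0.0286, adjusted 0.114). In both pairs every KO array lay above every WT array. This follows from the single genes, since Cox7a1 and Cox6a2 were higher and Cox7a2 and Cox6a1 lower without overlap. The p of these 2 pairs was thus fixed in advance and adds no evidence. The shift was 0.39 (SE 0.18) for Cox8b and Cox8a and 0.09 (SE 0.05) for Cox6b2 and Cox6b1, each with an exact permutation p of 0.114. Against the second probe of Cox8a, the shift of Cox8b was 0.26. The shifts of the first 2 pairs stayed positive under quantile normalization (0.31 and 0.13) and cyclic loess (0.30 and 0.15).

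The other subunits of complex IV had negative differences. Cox5b, which binds zinc, had levels of 5.23, 5.21, 5.36 and 5.31 in WT and 5.16, 5.02, 5.06 and 4.95 in KO, without overlap. Its difference was -0.23 (SE 0.06, adjusted p = 0.0575), and it was called without KO replicate 1 (-0.27, adjusted p = 0.0419). Cox5a had -0.11 (adjusted p = 0.109), and Cox7a2l, a factor that joins complexes III and IV into supercomplexes, had -0.13 (adjusted p = 0.106). Cox7b had -0.05 and was positive under quantile normalization (0.04) and cyclic loess (0.02). Ndufa4 is counted above with complex I by its name, although its protein is now placed in complex IV. It had -0.18 (adjusted p = 0.107), and with Ndufa4 and Ndufa4l2 moved the medians were -0.12 in complex IV and -0.10 in complex I. The difference of Ndufa4l2 and Ndufa4 within arrays shifted by -0.24 (SE 0.08, exact permutation p = 0.0571, adjusted 0.152).

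In ATP synthase, the subunits of the catalytic head had differences of -0.10 (Atp5a1, alpha), -0.12 (Atp5b, beta) and -0.15 (Atp5c1, gamma), each without overlap between genotypes and with adjusted p of 0.127, 0.112 and 0.0851. Under quantile normalization the differences were -0.03, -0.02 and -0.08. A second, dimmer probe of Atp5c1 gave 0.06 (SE 0.08). Atp5d (delta) had 0.00 (SE 0.04) and Atp5e (epsilon) -0.09 (adjusted p = 0.197), the first being the single member of ATP synthase whose value was not negative.

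Subunit c, which forms the rotating ring in the membrane, is made from several genes that encode the same mature protein with different import sequences. Atp5g2 had levels of 6.54, 6.61, 6.63 and 6.62 in WT and 6.40, 6.38, 6.40 and 6.40 in KO. The KO arrays lay within 0.02 of each other and below all WT arrays, and the difference was -0.20 (SE 0.04, adjusted p = 0.0220), or 86.8% of the WT signal. A second probe gave -0.17 (adjusted p = 0.0595). The first probe's adjusted p was 0.105 under quantile normalization and 0.0919 under cyclic loess, where the differences were -0.13 and -0.12. It stayed under 0.05 without WT replicate 1 or KO replicate 1 and was 0.0562 to 0.0726 without any other array. Atp5g1 had -0.09 (adjusted p = 0.283) and Atp5g3 -0.12 (adjusted p = 0.267), and within arrays Atp5g2 shifted by -0.11 (SE 0.04) against Atp5g1 and by -0.09 (SE 0.06) against Atp5g3, with exact permutation p of 0.0857 and 0.2.

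The members had 111 probes, and 22 genes had more than 1. Of the 29 probes not used as a gene's value, 25 were lower in KO and the median was -0.08. The sign differed between probes in 5 genes, Atp5c1, Ndufv3, Sdhb, Sdhc and Uqcrb. The RefSeq gene table holds another 21 genes with names of this form that had no named probe here, 18 of them pseudogenes. Whether the probes tell subunit genes from such copies was not tested.

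The other genes of respiration were taken from 13 lists, of which the mitochondrially encoded subunits had no named probe here. Of 136 genes tested, 99 were negative, with a median of -0.04. By limma, 0 were called lower and 1 was called higher, and at an unadjusted p under 0.05 and any fold 21 were lower and 3 higher, beside 15.3% and 10.9% of all tested genes. All KO arrays lay below all WT arrays in 18 of the 136 (13.2%), near the 12.4% of all tested genes, and above them in 5 (3.68%), beside 8.78%. Subunits and carriers outside the naming rule had a median of -0.05 over 9 genes, and -0.01 under quantile normalization and -0.02 under cyclic loess. They included Cox4i1, the largest nuclear subunit of complex IV, with -0.12 (adjusted p = 0.196), and Cyc1, cytochrome c1 of complex III, with -0.08 (adjusted p = 0.212), both without overlap.

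The medians were -0.07 for assembly factors of complex I (16 genes), -0.08 for those of complex II (4), -0.04 for those of complex IV (20) and -0.03 for those of ATP synthase (3). They were -0.07 for exchange of adenine nucleotides and phosphate (13) and -0.07 for maintenance and transcription of mitochondrial DNA (14). Under the other scalings the median lay between -0.04 and -0.01 for the complex IV assembly factors, between -0.05 and -0.01 for those of ATP synthase and between -0.05 and -0.02 for the exchange genes. The assembly factors of complex III (5 genes), coenzyme Q synthesis (12), the tricarboxylic acid cycle (19), regulators of mitochondrial biogenesis (14) and removal of superoxide and peroxide (7) had medians of -0.03 to -0.01, which turned positive under at least 1 other scaling each.

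Coq10b, which binds coenzyme Q and aids its function in the chain, was the called gene of these lists. Its levels were -0.74, -0.75, -0.80 and -0.66 in WT and -0.63, -0.40, -0.42 and -0.42 in KO, with KO replicate 1 close to the WT arrays and no overlap. The gene rose by 0.27 (SE 0.06, adjusted p = 0.0468). The adjusted p was 0.0531 under quantile normalization, 0.110 with a median shift and 0.0639 with the methods' t-test. It was 0.0865 with the mean of all probes, 0.124 without the filter on dim probes and 0.0777 with a block for replicate number. Without KO replicate 1 it was 0.0180, and without any other array it was 0.0718 to 0.118. The 3 genes of these lists with a lower signal and an adjusted p under 0.05 were named after their values were seen. Sdhaf1, an assembly factor that helps to load iron-sulfur clusters into complex II, had -0.17 (SE 0.04, adjusted p = 0.0404). Uqcc3, an assembly factor of complex III, had -0.18 (SE 0.04, adjusted p = 0.0390). Top1mt, the mitochondrial topoisomerase, had -0.19 (SE 0.04, adjusted p = 0.0454). All 3 lost this threshold when any array was left out, with adjusted p of 0.0522 to 0.115.

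**Figure D5:**
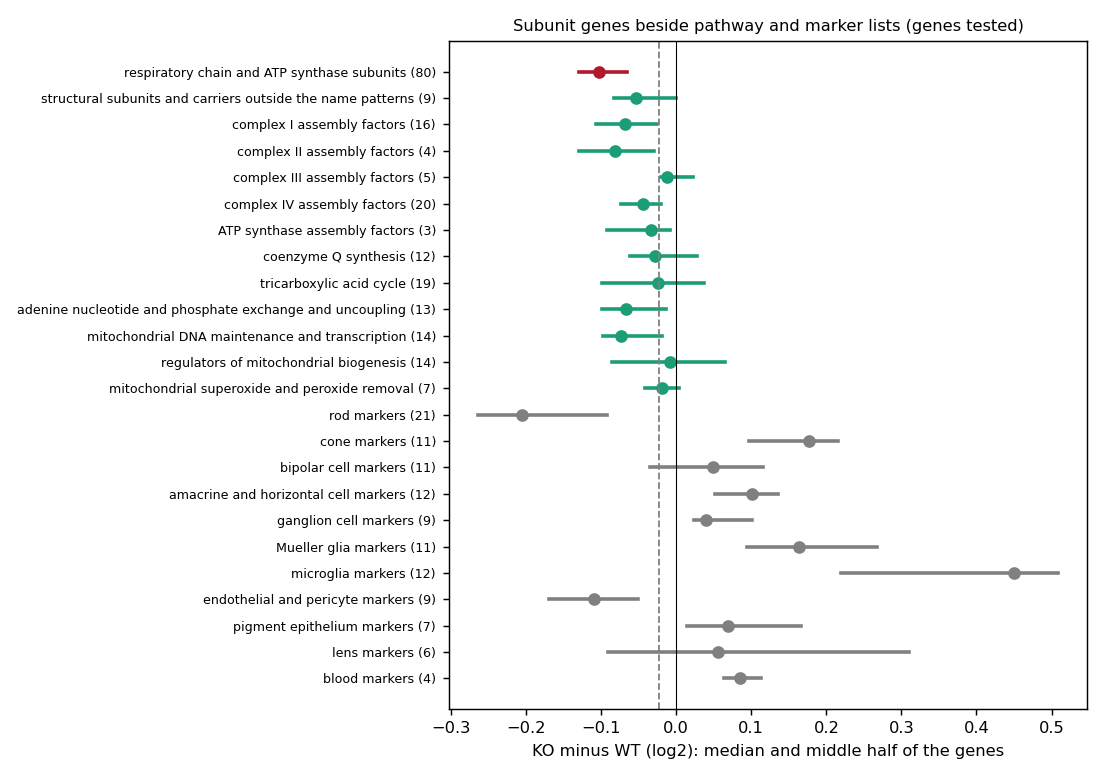
Median (point) and interquartile range (line) of the KO minus WT difference (log2, horizontal axis) of the 80 subunit genes (top), 12 pathway lists and 11 marker lists, with the number of genes tested in each. The subunit genes lie at -0.10, near the endothelial and pericyte markers (-0.11) and between the rod markers (-0.21) and the pathway lists. The dashed line is the median of all tested genes (-0.02).

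Markers of some cell types differed between the same samples. Of 21 rod markers, 18 were lower in KO, 5 were called lower (1.49% of all tested genes) and 16 were lower without overlap (12.4% of all tested genes), with a median of -0.21 that was -0.10 under quantile normalization and cyclic loess. Their summed level lay between 11.73 and 11.79 on WT arrays and between 11.50 and 11.59 on KO arrays. Cone markers (11 genes) had a median of 0.18, Müller glia markers (11) of 0.16, amacrine and horizontal cell markers (12) of 0.10, bipolar cell markers (11) of 0.05 and ganglion cell markers (9) of 0.04. Under the other scalings the last 3 of these lists had medians of 0.05 to 0.13, 0.04 to 0.11 and 0.05 to 0.08. No marker of these 3 lists was called by limma in either direction. An unadjusted p under 0.05 by limma was reached by 5, 3 and 3 of them, beside 15.3% lower and 10.9% higher of all tested genes. The summed level of the bipolar cell markers overlapped between WT arrays (8.27 to 8.43) and KO arrays (8.38 to 8.44). Those of amacrine and horizontal cells (7.15 to 7.18 in WT, 7.26 to 7.28 in KO) and ganglion cells (7.54 to 7.55 in WT, 7.59 to 7.64 in KO) did not. Of the cone and Müller glia markers, 2 and 3 were called higher (1.99% of all tested genes were). All 12 microglia markers were higher, 7 of them called (1.99% of all tested genes were called higher), with a median of 0.45. Their summed level lay between 3.95 and 4.07 on WT arrays and between 4.29 and 4.36 on KO arrays. All listed markers of rods, cones, bipolar, amacrine, horizontal and ganglion cells and Müller glia were on the array and tested. Markers of pigment epithelium, lens and blood had summed levels that overlapped between genotypes. The part of these cell types in the differences of the subunit genes was not tested. Beside Ndufa4l2, the 9 endothelial and pericyte markers had a median of -0.11, and 7 of them were negative. Their differences ran from -0.63 to 0.31, with 0 called lower and Flt1 called higher (0.31). In either direction 5 had an unadjusted p under 0.05 by limma, beside 15.3% lower and 10.9% higher of all tested genes. The summed levels of these markers on WT arrays (4.72 to 4.77) and KO arrays (4.66 to 4.74) overlapped.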

How the data were processed

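The authors hybridised retinal RNA in 1 colour to Agilent mouse arrays and quantified the scans by Agilent Feature Extraction (version 10.7.1.1). For each spot, the deposited scanner output gives intensity on a linear scale, background-subtracted and not scaled between arrays. The deposited value table holds the authors' log2 values after a 75th percentile shift. Here, log2 of the processed signal minus the 75th percentile over non-control spots was used, outlier spots (86 to 147 per array) were left out, and repeated spots were averaged. A probe entered the test if all 4 arrays of either genotype measured it well above background (33972 of 55681 probes). RefSeq accessions named 26413 probes, and the brightest probe stood for a gene. Genotypes were compared with limma 3.58.1 in R 4.3.3 and p-values were adjusted over all of these probes by the Benjamini-Hochberg method. The fold limit follows the study. All samples were grouped by their labels, and 0 per-sample columns were left unused.

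The fit was tested on simulated data for this comparison (33950 probes, 200 changed). It called 129 of 150 probes changed by at least 0.5 and 17 of 50 changed by 0.3 on the log2 scale, with 9 unchanged probes.

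Members and lists were chosen with earlier results of these data known, so no test was made over a list. Named genes were called members, the largest increase and decrease of each complex, core subunits and isoforms, and called genes of the pathway lists, while Ndufb11, Ndufb8, Sdhaf1, Uqcc3 and Top1mt were added after their values were seen. Not every gene set in this way is reported here. Alternatives were other scalings, background correction (normexp with offset 50, run on median signals), filters, tests, thresholds, a replicate block, the authors' values, all probes of a gene, outlier spots kept, Ndufa4 moved to complex IV, and each array left out.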

Additional observations from a re-analysis of the deposited data

Results flagged for a closer look

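In 7 of 104 groups of 4 arrays, 1 array stood apart from the others by Dixon's test, which chance alone flags in about 1 of 20 groups. Ndufa9 was at 3.00 on WT replicate 1 (other WT arrays 3.52 to 3.53), and Sdhb was at 4.62 on WT replicate 3 (others 5.11 to 5.16) and at 5.01 on KO replicate 4 (others 5.07 to 5.08). Cox6a2 was at -2.39 on WT replicate 4 (others -2.26 to -2.24). Cox7a2 was at 4.50 on KO replicate 4 (others 4.63 to 4.64). Ndufb8 was at 6.12 on WT replicate 3 (others 6.01 to 6.02), and Coq10b was at -0.63 on KO replicate 1 (others -0.42 to -0.40).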

How the results depend on the processing

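The fold limit of 1.2 lies above most members' differences, so a member near the median could not be called whatever its error. Of 45 single genes, 2 were called (Ndufa4l2 and Coq10b), and over the alternatives of all 45 11 values changed sign. Without the fold limit, 9 had an adjusted p under 0.05, and of 22 settings 15 kept it for Ndufa4l2, 12 for Cox7a1, 11 for Atp5g2, 9 for Coq10b, 7 each for Ndufb11, Sdhaf1, Uqcc3 and Top1mt and 6 for Ndufb8. The cause was not tested, except where fewer arrays or probes were used.

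Under quantile normalization 4 members were lower without overlap, and the medians were -0.0314 over all members, -0.0324 in complex I, -0.0461 in II, -0.029 in III, -0.0298 in IV and -0.0309 in V, with Cox7b at 0.0352 and Ndufs7 at 0.0369. Under cyclic loess 6 members were lower and 4 higher without overlap, and the medians were -0.0322 over all members, -0.0353 in complex I, -0.0376 in II, -0.028 in III, -0.030 in IV and -0.0294 in V, with Cox7b at 0.0214 and Ndufs7 at 0.0204. A median shift left 8 lower and 1 higher without overlap, and normexp left 1 higher. Of all tested genes, 11.7% were higher without overlap under quantile normalization, 12.3% under cyclic loess, 7.36% with a median shift and 8.68% with normexp. Without the filter on dim probes, or with a fold limit of 1.5, 0 members were called lower, and Lpcat1 at -0.46 missed the limit of 1.5. With no minimum fold, 4 members were lower and 1 higher. With the mean of all probes, complex II had a median of -0.0635 and Sdhb a difference of -0.0151.

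With each array left out in turn, 0 to 2 members were called lower. The count was 0 without WT replicates 2, 3 or 4 or KO replicates 3 or 4 and 2 without KO replicate 1, where Cox5b joined Ndufa4l2. The median of complex IV ranged from -0.122 to -0.091. Atp5d ranged from -0.0131 to 0.0151, Ndufa9 from -0.0594 to 0.119, Sdhb from -0.0728 to 0.107 and Uqcrb from -0.00138 to 0.0638.

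The replicate block called 0 members lower and left none of these 9 genes under 0.05 (adjusted p of 0.0626 to 0.0882, 0.0753 for Ndufa4l2 and 0.0777 for Coq10b). Same-numbered samples correlated in their deviations by 0.249, 0.0686, 0.0369 and 0.112. Each KO array correlated best with the WT array of its own number, which is a hint from the data only. The labels do not say that the numbers pair the samples, so the main fit did not pair them. Whether they do was not settled.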
